A study of Mus musculus with 8 samples.

Results

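Cd163, Marco, Cd5l, Mrc1, Timd4, Mertk, Axl, Vsig4, Siglec1 and Spic are genes of tissue-resident macrophages. Most encode receptors that take up debris, dying cells or opsonised particles, while Cd5l encodes a secreted protein and Spic a transcription factor. These 10 of the 55421 genes in the deposited table were found by symbol. They were proposed with results of the same doxorubicin-against-vehicle contrast in view, so their differences between the groups are given as descriptions, and calls among them support nothing. The RNA came from tibiae and femurs of wildtype male C57BL/6 mice, 15 weeks old at the start, whose bones were cleaned of soft tissue, cut free of their ends and spun to drive out the marrow. On day 0, 4 mice received saline vehicle and 4 received 10 mg/kg doxorubicin, an anthracycline that damages DNA, each by the intraperitoneal route. All bones were taken on day 30, and the tibiae and femurs of 1 mouse were pooled into 1 RNA sample. In the series, doxorubicin served as a model of senescence after chemotherapy, under a title that names complement, osteoclast precursors and bone loss.

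Resident macrophages clear dying cells by efferocytosis, in which receptors read phosphatidylserine on the corpse, either directly or through a bridging protein, and the corpse is engulfed and digested. In marrow, such macrophages also sit at the centre of erythroblastic islands, where they take up expelled nuclei and recycle the iron of old red cells. Scavenger receptors extend this uptake to haemoglobin, modified lipoproteins and bacteria. In bone, resident macrophages lie along the endosteum and in the marrow, and bulk RNA does not locate those measured here.

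The libraries held between 23699525 and 35747083 counts. Vehicle 3 stood apart by its low skeletal muscle RNA: the 7 muscle markers summed to 3577 CPM (read counts scaled by library size and TMM) there, against 18348 to 20600 in the other vehicle libraries and 11216 to 28393 in the doxorubicin libraries. The members' log2 differences are also given without it. The 11 pan-macrophage markers summed to 3252 to 5169 CPM with vehicle and 3153 to 4432 CPM with doxorubicin, but most of that sum was Lyz2, at 2395 to 4069 and 2448 to 3349 CPM, which neutrophils and monocytes also express. Adgre1, a marker more restricted to macrophages, was at 33.6 to 58.9 CPM over the 8 libraries. Marrow RNA remained as well, with neutrophil markers at 12736 to 22831 and 10198 to 21185 CPM. The 5 liver markers summed to 1.26 ± 1.28 CPM with vehicle and 4.69 ± 3.47 CPM with doxorubicin (SD, n = 4 each). The higher sums came from Serpina1a, at 7.97 CPM in doxorubicin 3, and Apoa1, at 6.57 CPM in doxorubicin 1, while Alb was at no more than 0.254 CPM. The Kupffer cell lectin gene Clec4f was at no more than 0.068 CPM, and at 0 in vehicle 1, vehicle 2 and doxorubicin 4. In such bulk samples, fewer macrophages and less RNA per macrophage cannot be told apart.

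RefSeq promoters on the mouse build GRCm38.p6 were matched by symbol for 9 of the 10 genes. The 5 genes with a log2 difference below −1 are shown, 250 bases up to the start site, 5′ to 3′ on the strand of the gene, because they share the largest differences described below. Capitals mark GAGGAA on either strand (TTCCTC where reversed). GAGGAA is one form of the core that Ets factors such as PU.1 and SPI-C can bind. The stretches of Cd163 and Timd4 hold no match to this form, and other forms were not searched.
Cd163, chr6:124304401-124304650, plus strand: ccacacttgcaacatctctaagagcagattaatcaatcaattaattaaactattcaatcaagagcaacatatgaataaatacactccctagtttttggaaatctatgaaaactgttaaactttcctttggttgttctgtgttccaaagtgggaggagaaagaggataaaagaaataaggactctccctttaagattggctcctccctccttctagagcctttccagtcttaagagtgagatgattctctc
Marco, chr1:120505025-120505274, minus strand: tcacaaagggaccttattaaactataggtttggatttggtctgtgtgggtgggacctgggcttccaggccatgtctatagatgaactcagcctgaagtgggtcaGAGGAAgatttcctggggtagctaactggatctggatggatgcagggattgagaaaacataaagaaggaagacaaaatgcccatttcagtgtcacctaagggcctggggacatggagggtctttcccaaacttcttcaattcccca
Cd5l, chr3:87357631-87357880, plus strand: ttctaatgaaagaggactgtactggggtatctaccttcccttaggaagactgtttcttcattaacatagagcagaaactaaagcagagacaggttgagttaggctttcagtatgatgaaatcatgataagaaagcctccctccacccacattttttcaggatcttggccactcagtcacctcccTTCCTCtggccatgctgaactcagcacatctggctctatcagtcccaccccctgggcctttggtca
Timd4, chr11:46810549-46810798, plus strand: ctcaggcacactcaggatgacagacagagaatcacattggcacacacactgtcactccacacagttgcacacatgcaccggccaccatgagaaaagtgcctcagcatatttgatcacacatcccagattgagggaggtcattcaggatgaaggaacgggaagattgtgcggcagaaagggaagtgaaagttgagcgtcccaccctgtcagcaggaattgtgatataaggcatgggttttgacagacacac
Vsig4, chrX:96293439-96293688, minus strand: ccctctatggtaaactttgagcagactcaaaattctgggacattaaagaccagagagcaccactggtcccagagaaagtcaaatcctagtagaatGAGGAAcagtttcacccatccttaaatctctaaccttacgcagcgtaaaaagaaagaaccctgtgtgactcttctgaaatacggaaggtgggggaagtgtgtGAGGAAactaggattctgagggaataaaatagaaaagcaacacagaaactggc
Matches were counted in windows of 300 bases, which run on to 50 bases past the start site, on both strands and with overlaps allowed. GAGGAA stood in 28.3% of all 32851 RefSeq windows and in 5 of the 9 member windows (Marco, Vsig4, Mrc1, Axl and Cd5l). AGGTCA, the repeated element in sites of nuclear receptors such as LXR, stood in 16.3% of all windows and only in that of Timd4 among the 9. TGACNNNGC, the core of the antioxidant response element read by NRF2 and BACH1, stood in 12.4% of all windows and in none of the 9. The Cd163 window held none of these motifs. A match is a description of the letters and not evidence of binding.

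The mean level of each of the 10 genes was lower with doxorubicin than with vehicle, but by very different amounts. Timd4, Cd163, Cd5l, Marco and Vsig4 lay between 14.2% and 46.2% of the vehicle level, whereas Mrc1, Mertk and Spic lay between 72.4% and 75.2%, Axl at 84.7% and Siglec1 at 92.8%. Groups that did not overlap were found for Cd163 and Timd4, and the other 8 genes overlapped. The plot of levels by library shows each mouse.

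**Figure D1:**
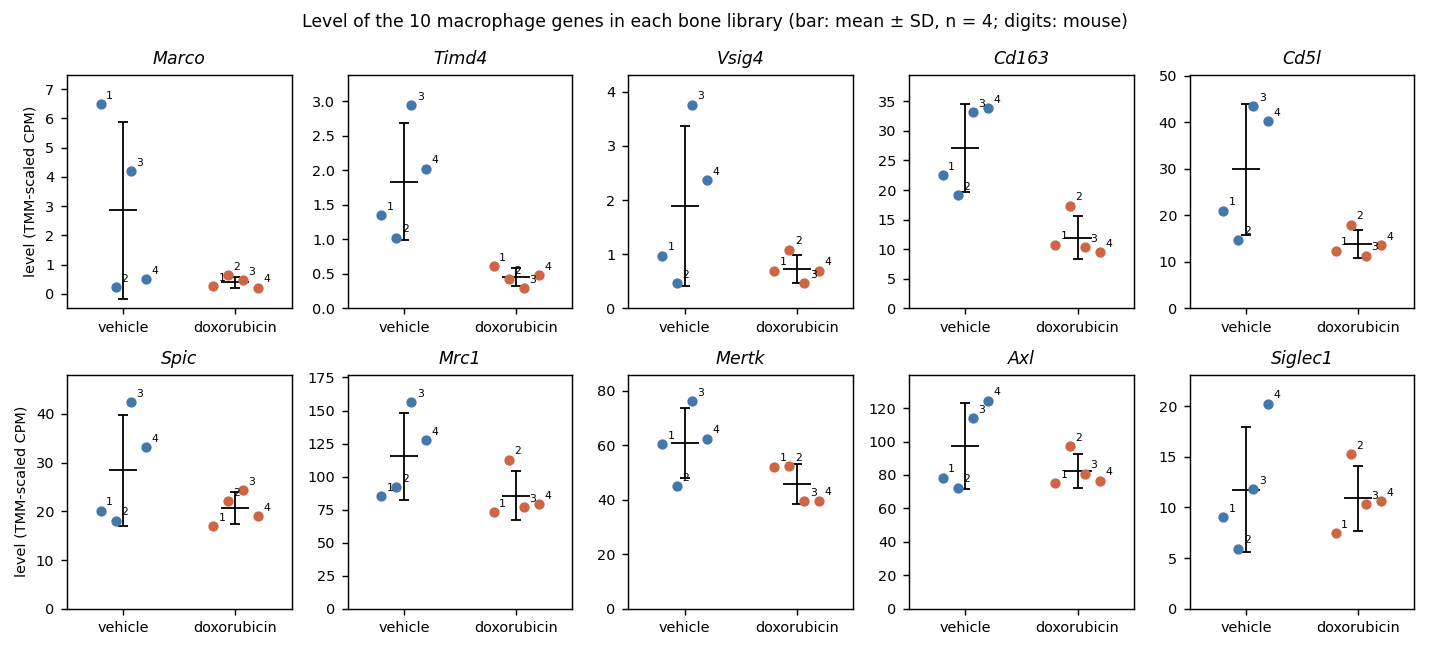
Level of each gene in CPM (scaled by TMM; linear axes that differ between panels) in the 4 vehicle and 4 doxorubicin libraries, with points numbered by mouse and bars at the mean ± SD. All 4 doxorubicin points of Cd163 and Timd4 lie below all 4 vehicle points, while Marco was high only in vehicle 1 and vehicle 3.

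Among the scavenger proteins, Cd163 encodes the receptor for haemoglobin bound to haptoglobin (ENSMUSG00000008845.9, chr6:124304656-124330527, plus strand). It measured 22.5, 19.2, 33.2 and 33.8 CPM in vehicle 1 to 4, and 10.8, 17.3, 10.3 and 9.47 CPM in doxorubicin 1 to 4. The highest doxorubicin library, doxorubicin 2, lay below the lowest vehicle library, vehicle 2. The means were 27.2 ± 7.45 and 12.0 ± 3.61 CPM (SD, n = 4 each), and doxorubicin minus vehicle, as in all that follow, came to −1.18 ± 0.24 (SE) on the log2 scale. It ranged from −1.44 without doxorubicin 2 to −1.08 without vehicle 4, and was −1.10 without vehicle 3.

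Marco encodes a class A scavenger receptor that binds bacteria and modified lipoproteins (ENSMUSG00000026390.7, chr1:120474538-120505024, minus strand). It measured 6.48, 0.233, 4.19 and 0.506 CPM with vehicle and 0.261, 0.631, 0.461 and 0.217 CPM with doxorubicin. Vehicle 1 and vehicle 3 were the high libraries, with 173 and 165 counts, while vehicle 2 and vehicle 4, with 5 and 15 counts, lay within the range of the doxorubicin libraries, which held 5 to 21. The means were 2.85 ± 3.02 and 0.392 ± 0.191 CPM (SD, n = 4 each), and their log2 difference, −2.81 ± 0.92 (SE), rested on 2 mice. It was −2.06 without vehicle 1, −2.60 without vehicle 3 and −1.96 by limma-voom.

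Cd5l encodes a secreted protein of the scavenger receptor cysteine-rich family, also called AIM (ENSMUSG00000015854.7, chr3:87357881-87371073, plus strand). Its levels were 21.0, 14.8, 43.5 and 40.3 CPM with vehicle and 12.4, 18.0, 11.3 and 13.6 CPM with doxorubicin. Only doxorubicin 2 reached into the vehicle range, above vehicle 2, and the other 3 doxorubicin libraries lay below every vehicle library. The means were 29.9 ± 14.1 and 13.8 ± 2.94 CPM (SD, n = 4 each). On the log2 scale the difference came to −1.11 ± 0.33 (SE), and leaving out vehicle 3 brought it to −0.91.

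Mrc1 encodes the mannose receptor CD206, which is also made by sinusoidal endothelium (ENSMUSG00000026712.3, chr2:14229392-14332057, plus strand, with the microRNA gene Mir511 inside it). It measured 85.2, 92.0, 156 and 127 CPM with vehicle and 73.2, 113, 76.7 and 79.3 CPM with doxorubicin. Doxorubicin 2 stood above vehicle 1 and vehicle 2, and the other 3 doxorubicin libraries lay below all vehicle libraries. The means were 115 ± 33.1 and 85.5 ± 18.4 CPM (SD, n = 4 each). They differed by −0.43 ± 0.21 (SE) on the log2 scale, or by −0.28 when vehicle 3 was left out.

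Of the receptors for dying cells, Timd4 encodes TIM-4, which binds phosphatidylserine directly (ENSMUSG00000055546.6, chr11:46810800-46844332, plus strand). It measured 1.35, 1.03, 2.95 and 2.03 CPM with vehicle and 0.609, 0.421, 0.296 and 0.478 CPM with doxorubicin. The groups did not overlap, although the doxorubicin values rested on 9 to 14 counts a library against 22 to 116 with vehicle. The means were 1.84 ± 0.848 and 0.451 ± 0.130 CPM (SD, n = 4 each), which differ by −2.06 ± 0.38 (SE) on the log2 scale. That value ranged from −2.26 without vehicle 2 to −1.76 without vehicle 3.

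Mertk and Axl encode receptor tyrosine kinases of the TAM family, which reach phosphatidylserine through the bridging proteins GAS6 and, for MERTK, protein S. Mertk (ENSMUSG00000014361.5, chr2:128698956-128802894, plus strand) measured 60.3, 44.9, 76.2 and 62.4 CPM with vehicle and 52.1, 52.3, 39.5 and 39.6 CPM with doxorubicin. Vehicle 2 was the one vehicle library inside the doxorubicin range, and without it the groups did not overlap. The means were 60.9 ± 12.8 and 45.9 ± 7.29 CPM (SD, n = 4 each), which differ by −0.41 ± 0.17 (SE) on the log2 scale, or by −0.32 when vehicle 3 is left out. Gm14011, an antisense gene, overlaps Mertk, and no source used here gives the strand setting of the counting.

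Axl (ENSMUSG00000002602.16, chr7:25757273-25788705, minus strand), which stromal cells also make, measured 78.3, 72.4, 114 and 125 CPM with vehicle and 75.2, 97.1, 80.8 and 76.6 CPM with doxorubicin. All 4 doxorubicin libraries lay inside the vehicle range, above vehicle 2 and below vehicle 3 and vehicle 4. Its means of 97.3 ± 25.8 and 82.4 ± 10.1 CPM (SD, n = 4 each) differ by −0.24 ± 0.18 (SE) on the log2 scale. That value was −0.37 without vehicle 2, −0.19 without vehicle 3 and −0.12 without vehicle 4.

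Vsig4 encodes CRIg, the complement receptor that takes up particles coated with C3b and iC3b (ENSMUSG00000044206.3, chrX:96247203-96293438, minus strand). It measured 0.974, 0.467, 3.76 and 2.36 CPM with vehicle and 0.696, 1.08, 0.461 and 0.695 CPM with doxorubicin. Vehicle 3 and vehicle 4 were high, and vehicle 1 and vehicle 2 lay inside the doxorubicin range. The means were 1.89 ± 1.48 and 0.733 ± 0.257 CPM (SD, n = 4 each), and they differ by −1.39 ± 0.56 (SE) on the log2 scale, or by −0.84 once vehicle 3 is left out.

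Siglec1 encodes sialoadhesin, or CD169, a sialic acid receptor of marrow and lymph node macrophages (ENSMUSG00000027322.11, chr2:131069220-131086765, minus strand). It measured 9.03, 5.93, 11.8 and 20.3 CPM with vehicle and 7.48, 15.2, 10.3 and 10.6 CPM with doxorubicin. Every doxorubicin library lay inside the vehicle range. Its means were 11.7 ± 6.16 and 10.9 ± 3.21 CPM (SD, n = 4 each). On the log2 scale they differ by −0.11 ± 0.35 (SE), and the value was −0.14 without vehicle 3 and changed sign to 0.27 without vehicle 4 and 0.022 without doxorubicin 1.

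Spic encodes SPI-C, the Ets factor of red pulp and erythroblastic island macrophages, which haem induces by removing BACH1 (ENSMUSG00000004359.16, chr10:88674772-88685015, minus strand). It measured 20.1, 18.1, 42.4 and 33.1 CPM with vehicle and 17.0, 22.1, 24.4 and 19.1 CPM with doxorubicin. Vehicle 3 and vehicle 4 were above all other libraries, and vehicle 1 and vehicle 2 lay among the doxorubicin libraries. The means were 28.4 ± 11.4 and 20.6 ± 3.28 CPM (SD, n = 4 each). They differ by −0.47 ± 0.26 (SE) on the log2 scale, or by −0.24 when vehicle 3 is left out.

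**Figure D2:**
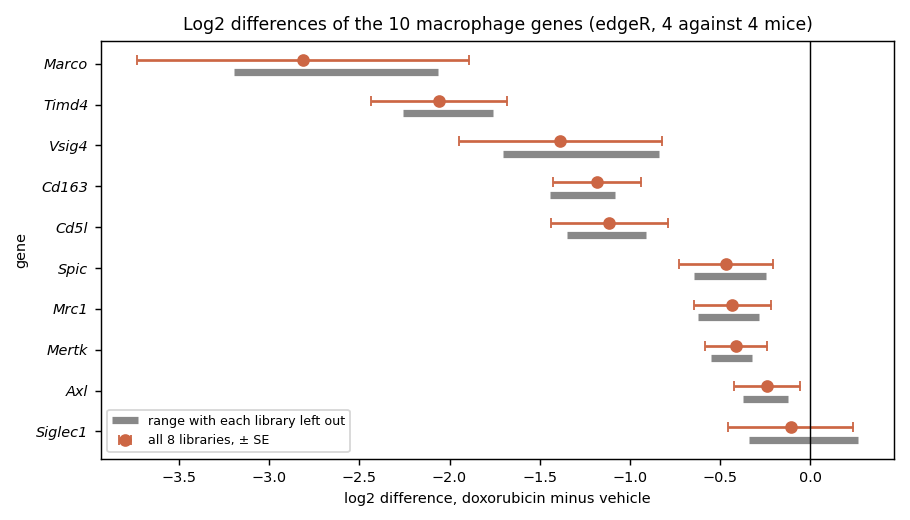
Log2 difference, doxorubicin minus vehicle, of each gene from edgeR over 4 against 4 mice (points, ± SE), with the range of the difference when each library was left out in turn (grey bars). The points run from −2.81 for Marco to −0.11 for Siglec1, and only the grey bar of Siglec1 crosses 0.

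Across the 10 genes the median log2 difference was −0.79, beside 0.04 over the 17035 genes tested, and 10 of 10 were below 0, beside 42.8% of all genes. Without vehicle 3 the median of the 10 was −0.58. The groups did not overlap, with doxorubicin lower, for 2 of the 10 genes and for 1.95% of all genes, and in either direction for 3.59% of all genes. Without vehicle 2 the lower genes were 4, with Mertk and Cd5l added, beside 2.64% of all genes. Without doxorubicin 2 they were also 4, with Mrc1 and Cd5l added, beside 3.06%. With any other library left out they stayed at 2, Cd163 and Timd4. The share of all genes then ran from 2.32% without vehicle 3 to 5.17% without doxorubicin 3 and 5.24% without vehicle 4. At an adjusted p of 0.05 in edgeR's quasi-likelihood test with Benjamini-Hochberg adjustment, 0 of the 10 genes and 0% of all genes passed. At an unadjusted p under 0.05 the edgeR test counted 6 of the 10 and 3.23% of all genes as lower, 0 of the 10 and 2.13% of all genes as higher, and 5.36% of all genes in either direction. DESeq2 called 2 of the 10 (Cd163 and Timd4) and 0.129% of all genes as lower, and limma-voom called 0 of the 10. Since the genes were proposed from this contrast, nothing is read from these counts.

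The levels of Cd163 and Timd4 are also described relative to the pan-macrophage markers, some of which other myeloid cells express. The markers were mixed, with 4 above and 7 below 0, and Adgre1 at −0.29 ± 0.13 (SE) on the log2 scale. The geometric mean of the 11 pan-macrophage markers was 64.9, 75.2, 90.5 and 67.6 CPM with vehicle and 56.5, 73.7, 87.5 and 72.5 CPM with doxorubicin, so the groups overlapped. Cd163 averaged 36.7% ± 10.1 of that mean with vehicle and 16.9% ± 5.46 with doxorubicin (SD, n = 4 each), and its lowest vehicle ratio, 25.5%, lay above its highest doxorubicin ratio, 23.5%. Timd4 averaged 2.42% ± 0.868 of it with vehicle and 0.662% ± 0.309 with doxorubicin (SD, n = 4 each). For both genes the groups were again apart with doxorubicin lower, as for 1.3% of the genes tested, and the ratios of the other 8 genes overlapped. Both were already apart in level and the marker mean differed little between the groups, so this separation adds no support. It does not tell fewer macrophages from less RNA per macrophage. With the pan-macrophage level as a covariate the log2 differences were −1.16 for Cd163, −2.02 for Timd4, −1.07 for Cd5l and −1.25 for Vsig4.

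The levels of other cell types also varied between libraries. Erythroid markers summed to 1594, 1634, 2386 and 2593 CPM with vehicle and 1377, 1500, 2708 and 1249 CPM with doxorubicin, so vehicle 3 and vehicle 4, the highest for most members, were also the highest vehicle libraries here. The 6 dendritic cell markers summed to 71.1 to 95.9 CPM with vehicle and 56.4 to 68.5 CPM with doxorubicin, without overlap. Of these, 5 were tested and 5 had a log2 difference below 0. Megakaryocyte markers, 8 of 8 below 0, summed to 559 to 781 CPM with vehicle and 354 to 565 CPM with doxorubicin. Erythroid markers were 8 of 8 below 0, with a median log2 difference of −0.27, and T cell markers 5 of 5, with a median of −0.24. Lists mostly above 0 included 8 of 8 osteoclast markers, 5 of 5 fibroblast, 6 of 7 osteoblast and 7 of 7 skeletal muscle markers. Osteoclast markers had a median log2 difference of 0.50 and summed to 572 to 1381 CPM with vehicle and 1102 to 1436 CPM with doxorubicin. In each of these lists edgeR called 0 genes at an adjusted p of 0.05, with 3 osteoclast, 2 fibroblast, 2 osteoblast and 0 muscle markers higher at an unadjusted p under 0.05. On the lower side at that unadjusted p were 4 megakaryocyte, 2 dendritic cell, 1 T cell and 0 erythroid markers. DESeq2 called 1 megakaryocyte marker, Gp6, as lower and 0 in the other lists named here. limma-voom called 0 in each of them. The part of these cells in the members' differences was not tested. With a covariate for the residual marrow level (neutrophil and erythroid markers), Cd163 differed by −1.17 and Timd4 by −1.98 on the log2 scale, while Spic differed by −0.27. With skeletal muscle as the covariate, chosen after the data were seen, Cd163 differed by −1.06, Timd4 by −1.83, Marco by −2.63, Cd5l by −0.90 and Vsig4 by −0.89. The smaller differences became −0.26 for Mrc1, −0.32 for Mertk, −0.15 for Axl, −0.048 for Siglec1 and −0.23 for Spic.

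Per kilobase of exon, the order of the levels with vehicle was Axl at 19.3 ± 5.13 CPM per kb, Mrc1 at 18.1 ± 5.20, Cd5l at 14.7 ± 6.94, Mertk at 14.1 ± 2.95, Spic at 7.40 ± 2.98 and Cd163 at 4.97 ± 1.36 CPM per kb (SD, n = 4 each). Below these came Siglec1 at 1.64 ± 0.862, Marco at 1.48 ± 1.57, Vsig4 at 1.27 ± 0.998 and Timd4 at 0.845 ± 0.390 CPM per kb. Among neighbours in this order only Cd163 and Siglec1 did not overlap, so with vehicle the set fell into 6 genes of higher and 4 of lower level. With doxorubicin that split was gone, as Cd163, at 2.19 ± 0.662, and Siglec1, at 1.53 ± 0.449 CPM per kb (SD, n = 4 each), overlapped. Neighbours apart with doxorubicin included Spic and Cd163, Siglec1 and Vsig4, and Vsig4 and Timd4. With doxorubicin Mertk, at 10.6 ± 1.68 CPM per kb, stood above Cd5l, at 6.79 ± 1.44 (SD, n = 4 each), without overlap, whereas the pair overlapped with vehicle. Timd4, at 0.207 ± 0.0597 CPM per kb, and Marco, at 0.204 ± 0.0993 CPM per kb (SD, n = 4 each), were then the lowest and overlapped, so they cannot be ordered.

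The vehicle libraries also varied among themselves in a like way for most members. Vehicle 3 and vehicle 4 were the highest 2 vehicle libraries for 9 of the 10 genes, and for 19.0% of all tested genes. Marco was the exception, with vehicle 1 highest. The coefficient of variation was larger with vehicle than with doxorubicin for 9 of the 10 genes, and for 56.5% of all tested genes. It reached 106% for Marco, 78.3% for Vsig4 and 52.4% for Siglec1 with vehicle, and Cd163 was the exception, at 27.4% with vehicle and 30.2% with doxorubicin. Without vehicle 3 the vehicle value was larger for 10 of the 10 genes and for 47.1% of all tested genes. These shares carry no test.

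**Figure D3:**
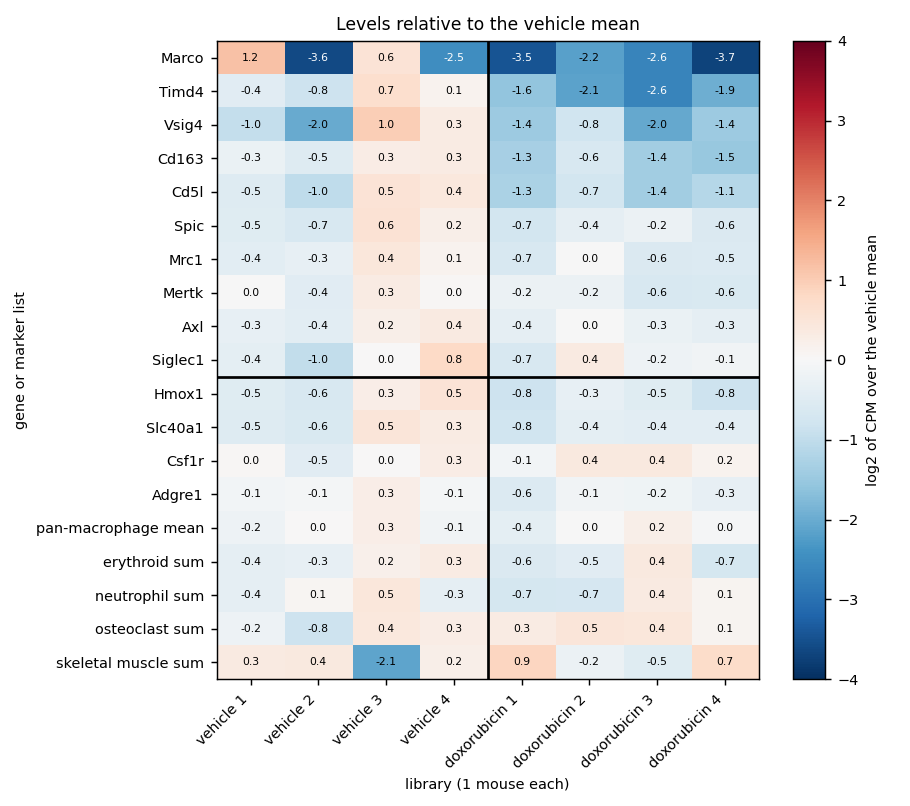
Log2 of the level in each library over the vehicle mean (colour and printed value) for the 10 genes, 4 other macrophage and iron genes, the pan-macrophage mean and the summed markers of 4 other cell types. Vehicle 3 and vehicle 4 are the reddest vehicle columns for most of the 10 genes, and the skeletal muscle sum of vehicle 3 is low.

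Likeness of pattern was measured as the mean absolute difference of standardised log2 CPM over the 8 libraries, among 14774 genes of at least 1 CPM. The median over all genes was 1.04 to 1.12. The nearest genes were picked as the smallest of so many distances, so they lie below that median by selection. Standardising also removes the size of a difference, so a near gene need not differ between the groups by a like amount. The genes nearest to Cd163 were Ms4a14 at 0.198 and the lectin gene Cd209f at 0.252, and those nearest to Timd4 were Ccdc148 at 0.179 and Gm3081 at 0.199. Nearest to Vsig4 were Lrp12 at 0.0788 and Tmem26 at 0.137, to Cd5l Epb41l3 at 0.124 and Hexim2 at 0.192, and to Mrc1 Pappa at 0.119 and Abcg3 at 0.145. Axl lay nearest to Fcna at 0.156 and to the haem oxygenase gene Hmox1 at 0.218, and Siglec1 to the lysosomal genes Psap at 0.129 and Pld3 at 0.190. Mertk lay nearest to Cacna1e at 0.168 and Cd209f at 0.243, Spic to Slc9a9 at 0.167 and Hacd3 at 0.172, and Marco to the zinc transporter genes Slc30a1 at 0.214 and Slc30a7 at 0.302. Within the set, Cd5l was the nearest member to Cd163, at 0.278, and to Vsig4, at 0.245. Csf1r, the receptor for the macrophage growth factor, was farther than the median gene from Cd163, at 1.21, Timd4, Mertk and Marco, and nearer than it to the other 6 members, down to 0.468 from Siglec1.

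The rest of the clearance pathway was read from lists of genes that were no members. These lists too were chosen with earlier results of these data known. In each of the 10 lists 0 genes were called by edgeR, DESeq2 or limma-voom at an adjusted p of 0.05. Of the 12 bridging molecules and opsonins, 6 had a log2 difference above 0 and 6 below, with a median of −0.09, and 1 was higher and 2 lower at an unadjusted p under 0.05. Thbs1, which bridges dying cells to CD36 and integrins, measured 444 ± 131 CPM with vehicle and 248 ± 60.7 with doxorubicin (SD, n = 4 each). Its groups did not overlap, and differ by −0.84 ± 0.24 (SE) on the log2 scale. Vehicle 1 and vehicle 2, at 584 and 526 CPM, stood well above vehicle 3 and vehicle 4, at 341 and 323 CPM. The highest doxorubicin library was doxorubicin 2, at 310 CPM. The pentraxin Ptx3 measured 7.63 ± 0.471 and 6.05 ± 0.420 CPM, also without overlap, and Mfge8, a bridge to integrins, 18.5 ± 2.88 and 24.7 ± 4.62 CPM (SD, n = 4 each). The TAM ligands, named for their role after their values were seen, had overlapping groups. Gas6 measured 164 ± 27.8 and 174 ± 21.0 CPM and Pros1 58.2 ± 7.55 and 51.2 ± 2.97 CPM (SD, n = 4 each). The Gas6 value on the log2 scale, 0.08 ± 0.15 (SE), changed sign without vehicle 2 or doxorubicin 2.

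**Figure D4:**
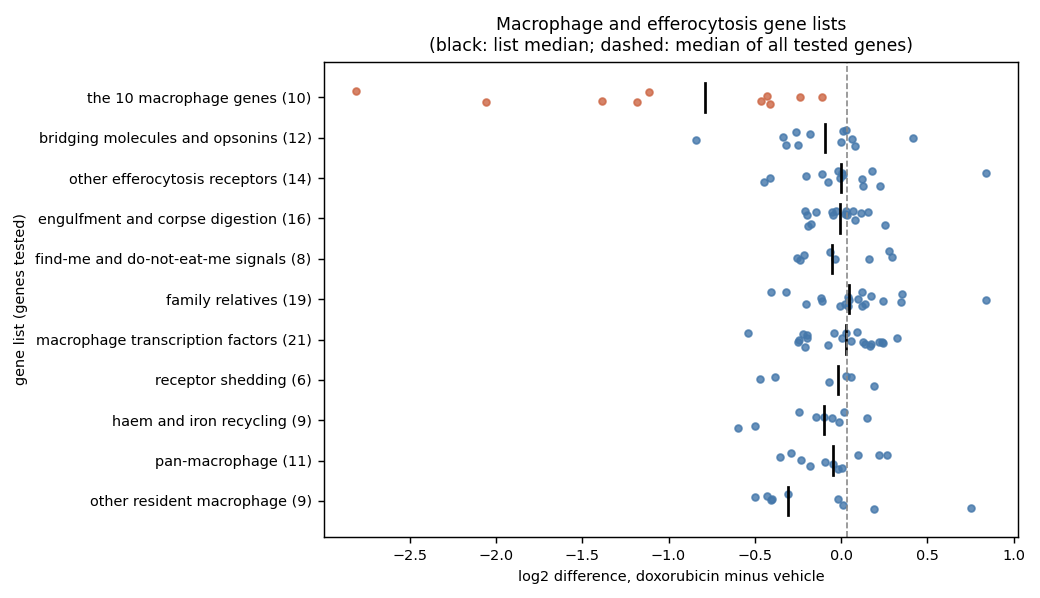
Log2 difference, doxorubicin minus vehicle, of each tested gene (points) of the 10 macrophage genes and 10 lists, with the list medians (black) and the median of all tested genes (dashed, 0.04). The list medians lie between −0.31 and 0.05, and that of the 10 genes, which were chosen on this contrast, at −0.79. The lists were also chosen with earlier results of these data known, so they are not an independent comparison.

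Of the other efferocytosis receptors, 14 of 16 were tested, 7 above and 7 below 0, and 1 was lower at an unadjusted p under 0.05. That gene, the integrin Itgb3, measured 303 ± 15.2 and 228 ± 33.7 CPM (SD, n = 4 each), without overlap. It was lowest in doxorubicin 1, at 178 CPM. That library was also the lowest for the summed megakaryocyte markers, at 354 CPM, pan-macrophage markers, at 3153 CPM, and neutrophil markers, at 10198 CPM. It was not the lowest for osteoclast markers, at 1275 CPM against 1102 CPM in doxorubicin 4. Which cells the Itgb3 difference came from was not tested. Tyro3, the other TAM receptor, was low in both groups at 0.766 ± 0.235 and 1.38 ± 0.913 CPM (SD, n = 4 each), and Stab2, a scavenger receptor of sinusoids, measured 46.0 ± 11.5 and 33.7 ± 11.8 CPM (SD, n = 4 each). The 16 genes of engulfment and corpse digestion split 8 above and 8 below 0 with 0 at an unadjusted p under 0.05, and the 8 genes of signals from and on cells split 3 and 5, again with 0. Cd47, the signal that restrains engulfment, measured 297 ± 42.4 and 256 ± 41.2 CPM (SD, n = 4 each). Of 19 tested relatives of the members, 13 were above and 6 below 0. At an unadjusted p under 0.05, 1 of them was lower: Siglech, a sialic acid receptor relative of plasmacytoid dendritic cells, at 23.4 ± 2.33 and 18.7 ± 2.45 CPM (SD, n = 4 each).

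Of 21 macrophage transcription factors, 12 were above and 9 below 0, with a median of 0.03, and 0 passed an unadjusted p of 0.05. Spi1, which encodes PU.1 and was named for its role after its values were seen, measured 52.4 ± 6.57 and 62.0 ± 17.0 CPM (SD, n = 4 each), with overlapping groups. Its difference on the log2 scale, 0.24 ± 0.19 (SE), was 0.04 without doxorubicin 3. Of the 6 genes of receptor shedding, 3 were above and 3 below 0 and 2 were lower at an unadjusted p under 0.05. Adam10, a protease that sheds surface receptors, measured 200.3 ± 26.9 and 154 ± 15.9 CPM (SD, n = 4 each) without overlap, and Timp3, an inhibitor of such proteases, 259 ± 70.1 and 187 ± 19.2 CPM (SD, n = 4 each). Adam17, which can shed MERTK, measured 53.9 ± 4.66 and 51.3 ± 2.77 CPM (SD, n = 4 each).

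In haem and iron recycling, 9 of 10 genes were tested, 2 above and 7 below 0, with 1 lower at an unadjusted p under 0.05. Hmox1, which breaks down the haem that CD163 brings in, measured 69.8, 62.8, 118 and 143 CPM with vehicle and 55.7, 78.8, 69.6 and 55.7 CPM with doxorubicin, and its log2 difference of −0.60 ± 0.26 (SE) was −0.38 without vehicle 4. Slc40a1, the iron exporter ferroportin, measured 134, 124, 264 and 240 CPM with vehicle and 109, 147, 141 and 143 CPM with doxorubicin. Both were highest in vehicle 3 and vehicle 4, as Spic was, and both groups overlapped.

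Pan-macrophage markers were split, 4 above and 7 below 0 of 11, with a median of −0.05 and 0 at an unadjusted p under 0.05. Adgre1, which encodes F4/80, measured 45.7, 46.4, 58.9 and 46.4 CPM with vehicle and 33.6, 44.9, 43.7 and 39.5 CPM with doxorubicin, without overlap. Its log2 difference was −0.29 ± 0.13 (SE), beside −1.18 for Cd163 and −2.06 for Timd4. Csf1r measured 71.9 ± 15.0 and 83.9 ± 13.7 CPM (SD, n = 4 each), and its groups overlapped. Of the other resident macrophage markers, 9 of 10 were tested, 3 above and 6 below 0, with 1 higher and 1 lower at an unadjusted p under 0.05. Cbr2 was the higher one, at 4.10 ± 1.03 and 6.94 ± 0.897 CPM (SD, n = 4 each) without overlap, or 0.75 ± 0.19 (SE) on the log2 scale. Clec10a was the lower one, at 11.4 ± 1.43 and 8.49 ± 1.64 CPM (SD, n = 4 each). Selenop measured 821 ± 253 and 618 ± 97.9 CPM, and Fcna, nearest in pattern to Axl, 39.8 ± 15.6 and 30.2 ± 5.61 CPM (SD, n = 4 each).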

How the data were processed

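Bulk RNA-seq of 8 libraries, 1 mouse each, was analysed, so replicates are separate animals. The deposited values were taken to be RSEM-type expected counts, all of them whole numbers, and the submitters' processing notes name STAR 2.5.3a, RSEM 1.3.0 and, for these mouse identifiers, the human build GRCh38. No source used here states the authors' annotation or their use of strand and molecular identifiers. Libraries came from a stranded poly-A kit, per the labels' protocols. Of the 55421 identifiers, 54587 matched GENCODE M21 on GRCm38, used for positions and exon lengths.

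filterByExpr (minimum count 10, total 15) kept 17035 genes and all 10 members. Its level cutoff was 0.369 CPM, which Marco reached in 3 vehicle and 2 doxorubicin libraries, Timd4 in 4 and 3, and the other 8 members in all 8. CPM values are TMM-scaled. The fit across all genes was edgeR 4.0.16's two-sided robust quasi-likelihood test (R 4.3.3), adjusted by Benjamini-Hochberg and called at 0.05. DESeq2 1.42.0 and limma-voom (limma 3.58.1), other scalings and filters, covariates, a replicate block and each library left out were alternatives. The fit was tested on simulated data. Over 28 library pairs, chi-square per degree of freedom was at least 29.0, so no libraries were duplicates. Members and lists were chosen with earlier results of these data known. From each list the 4 genes with the smallest p could be named, and 2 genes nearest in pattern to each member.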

Additional observations from a re-analysis of the deposited data

Results flagged for a closer look

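Among the 104 groups of 4 libraries looked at for the genes named, 7 had 1 library far from the other 3. Chance marks about 1 in 20 groups. For 2 members it was doxorubicin 2 on the high side: Cd163 measured 17.3 CPM there against 9.47 to 10.8 in the other doxorubicin libraries, and Mrc1 113 CPM against 73.2 to 79.3. Doxorubicin 1 was low for Itgb3, at 178 CPM against 241 to 250.4, and for Slc40a1, at 109 CPM against 141 to 147. Vehicle 3 was high for Adgre1, at 58.9 CPM against 45.7 to 46.4, and for Selenop, at 1196 CPM against 646 to 722. Vehicle 4 was low for Adam17, at 46.9 CPM against 55.8 to 56.7.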

How the results depend on the processing

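Over all tested genes edgeR called 0, against 29 with DESeq2 and 1 with no filter, and over the 10 members 0 against 2 with DESeq2 (Cd163 at −1.19 and Timd4 at −2.07 on the log2 scale). At an unadjusted p under 0.05 the count over all genes was 913, and 1784 without vehicle 4. In each of the 10 lists 0 genes were called under all 18 alternatives. Of 933 log2 differences of 52 named genes under the alternatives, 928 kept their sign. The 5 that reversed were Siglec1 at 0.27 without vehicle 4 and 0.022 without doxorubicin 1, Rhbdf1 at −0.022 without doxorubicin 2, and Gas6 at −0.011 without vehicle 2 and −0.024 without doxorubicin 2. With each library left out, Siglec1 ranged from −0.34 to 0.27, Rhbdf1 from −0.022 to 0.42 and Gas6 from −0.024 to 0.13. The cause of these changes was not tested. The filter of 1 CPM in 4 libraries removed Marco, Timd4 and Vsig4, which hold 282 to 404 counts over all libraries, so depth limits their values most.

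Replicate numbers are shared by the groups, and deviations of same-numbered libraries correlated at 0.34, −0.27, 0.43 and 0.09. Between libraries of different number the correlations ran from −0.42 to 0.23. With so few libraries, whether the same-numbered ones share more than a number cannot be told from these values. With the replicate block, 0 genes were called and 1466 passed an unadjusted p of 0.05.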
